A study of Arabidopsis thaliana with 12 samples.

Results

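The 6 nuclear genes LHCA1 to LHCA6 encode the chlorophyll-binding antenna proteins of photosystem I in the plant Arabidopsis thaliana. They were picked out by their locus identifiers among the 37184 genes counted in each library, and 6 of the 6 passed the filter on low counts that left 21974 genes for testing. Soil-grown seedlings aged 21 days, kept in 16 h of light and 8 h of dark after 2 days at 4 °C, gave 12 RNA-seq libraries. Of these, 3 came from the double mutant dxo1-2 xrn3-8, 3 from the dxo1-2 mutant, 3 from the xrn3-8 mutant and 3 from Col-0 wild type. DXO1 belongs to a family of enzymes that act on RNA 5′ ends, and XRN3 is a nuclear exoribonuclease that digests RNA in the 5′ to 3′ direction. The design text calls the libraries of a genotype biological replicates and says that the 4 genotypes were grown, extracted and sequenced side by side. The titles mark the libraries of dxo1-2, xrn3-8 and Col-0 as re-analyzed and those of the double mutant not, and the design text says that the 3 genotypes had been deposited before. Any effect of this difference cannot be told apart from that of the double genotype. What the re-analysis was, the hour of harvest, the nature of the alleles and any pooling of plants are not given in the sources used here.

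Photosystem I uses light to move electrons from plastocyanin to ferredoxin in the chloroplast, and its core carries a crescent of antenna proteins on one side. That crescent is built from LHCA1, LHCA2, LHCA3 and LHCA4, which sit as an LHCA1 and LHCA4 dimer and an LHCA2 and LHCA3 dimer and pass absorbed energy to the core. LHCA5 and LHCA6 are scarce relatives that, in Arabidopsis, link photosystem I to the chloroplast NDH complex, a ferredoxin-dependent complex of cyclic electron flow. The proteins are made in the cytoplasm and imported into the chloroplast, so their genes are read in the nucleus and respond to light, the circadian clock and signals from the plastid.

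By the RefSeq annotation of build TAIR10.1, LHCA1 (AT3G54890) lies on chromosome 3 at 20339504 to 20341176 on the minus strand. LHCA2 (AT3G61470) lies on chromosome 3 at 22745514 to 22747444 on the plus strand, and LHCA4 (AT3G47470) on chromosome 3 at 17493343 to 17495033 on the minus strand. LHCA3 (AT1G61520) lies on chromosome 1 at 22699715 to 22701412, LHCA5 (AT1G45474) at 17179250 to 17180806 and LHCA6 (AT1G19150) at 6612630 to 6613972, these 3 on the plus strand. The 250 bases before each start were searched for short elements known from light-regulated and clock-regulated plant promoters, and the bases before LHCA1, LHCA3, LHCA4 and LHCA5 are shown because they held matches. The sequences come from the RefSeq TAIR10.1 genome, run 5′ to 3′ on the strand of the gene and end at the base before the annotated start. Capitals mark matches on either strand to the CCAATC element, the G-box CACGTG, the I-box GATAAG, the evening element AAAATATCT and the CCA1-binding site AAAAATCT, and no matches overlapped. The LHCA1 sequence shown, chr3:20341177-20341356, stops at 180 bases because the gene AT3G54900 lies beyond them, and it holds each of the LHCA1 matches.
LHCA1: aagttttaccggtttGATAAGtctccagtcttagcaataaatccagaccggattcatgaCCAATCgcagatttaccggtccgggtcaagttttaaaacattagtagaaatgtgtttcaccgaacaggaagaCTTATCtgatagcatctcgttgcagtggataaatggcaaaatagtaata
LHCA3, chr1:22699465-22699714: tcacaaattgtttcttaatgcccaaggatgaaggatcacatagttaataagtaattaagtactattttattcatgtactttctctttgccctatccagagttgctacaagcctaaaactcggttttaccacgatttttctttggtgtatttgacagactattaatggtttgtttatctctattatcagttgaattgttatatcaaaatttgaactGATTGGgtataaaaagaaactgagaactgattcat
LHCA4, chr3:17495034-17495283: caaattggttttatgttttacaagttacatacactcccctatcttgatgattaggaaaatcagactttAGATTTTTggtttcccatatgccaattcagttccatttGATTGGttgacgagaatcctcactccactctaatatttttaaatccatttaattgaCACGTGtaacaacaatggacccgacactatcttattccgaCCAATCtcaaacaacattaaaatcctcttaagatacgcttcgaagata
LHCA5, chr1:17179000-17179249: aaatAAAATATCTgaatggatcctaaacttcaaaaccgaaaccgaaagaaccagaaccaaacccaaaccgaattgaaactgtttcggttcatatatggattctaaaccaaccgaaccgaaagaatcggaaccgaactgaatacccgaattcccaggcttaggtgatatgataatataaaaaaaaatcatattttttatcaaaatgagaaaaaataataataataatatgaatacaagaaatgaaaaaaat

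The CCAATC element was present before LHCA1, LHCA3 and LHCA4, with 2 matches in LHCA4, and it was present in 10.2% of the 250-base windows before 27444 protein-coding genes. The I-box had 2 matches before LHCA1 and was present in 12.3% of the windows. The G-box and the CCA1-binding site each had 1 match before LHCA4, against 6.49% and 6.69% of the windows. The evening element had 1 match before LHCA5, near the far end of its window, against 2.36% of the windows. None of the 5 elements matched in the 250 bases before LHCA2. None matched in the 250 bases before LHCA6 either, of which only the last 20 lie between genes and the rest in the neighbouring gene AT1G19140. A match describes the letters in these windows and is no evidence of binding.

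Gene counts per library ranged from 60138933 to 81494915, with 41.3 to 53.5% of them from plastid-encoded genes. This plastid share was 43.8, 45.9 and 41.3% in the double mutant and 48.5, 47.6 and 47.8% in dxo1-2. In xrn3-8 it was 51, 53.5 and 49%, and in Col-0 51.6, 51.6 and 50.8%. The share thus differed with genotype and was lowest in the double mutant, and its part in the LHCA values was not tested. DXO1 was covered by 240 to 265 counts in double-mutant libraries, 76 to 113 counts in dxo1-2 libraries, 639 to 758 counts in xrn3-8 libraries and 502 to 559 counts in Col-0 libraries. XRN3 was covered by 3095 to 3384 counts in double-mutant libraries, 3505 to 4177 counts in dxo1-2 libraries, 1416 to 1684 counts in xrn3-8 libraries and 2890 to 3269 counts in Col-0 libraries. On the log2 scale DXO1 fell by 1.52 in the double mutant (SE 0.11, edgeR adjusted p 1.2e-07) and by 2.54 in dxo1-2 (SE 0.118, adjusted p 4.6e-09) relative to Col-0. XRN3 averaged 40.2 ± 3.4 CPM in the double mutant, 21.6 ± 1.49 CPM in xrn3-8 and 51.8 ± 0.375 CPM in Col-0 (SD, n = 3 each). Both mutated genes thus had more RNA in the double mutant than in the single mutant of that gene, by 0.90 for XRN3 against xrn3-8 (SE 0.0759, edgeR adjusted p 7.6e-07) and by 1.01 for DXO1 against dxo1-2 (SE 0.119, adjusted p 2.7e-05). CPM are read counts scaled to a common library size after TMM adjustment.

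The antenna of photosystem I was strongly expressed and fell most in the double mutant. Summed over the 6 genes, the level was 3165 ± 408 CPM in the double mutant, 5865 ± 655 CPM in dxo1-2, 4916 ± 401 CPM in xrn3-8 and 7804 ± 615 CPM in Col-0 (SD, n = 3 each). As a share of the counts of nuclear genes, these were 0.654 ± 0.0681% in the double mutant, 1.13 ± 0.101% in dxo1-2, 1.01 ± 0.0663% in xrn3-8 and 1.43 ± 0.0904% in Col-0. In such bulk seedling RNA, fewer cells with green chloroplasts and less LHCA RNA per cell cannot be told apart. The LHCA genes themselves differed widely in level, so that 4 of them made up nearly the whole sum.

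**Figure D1:**
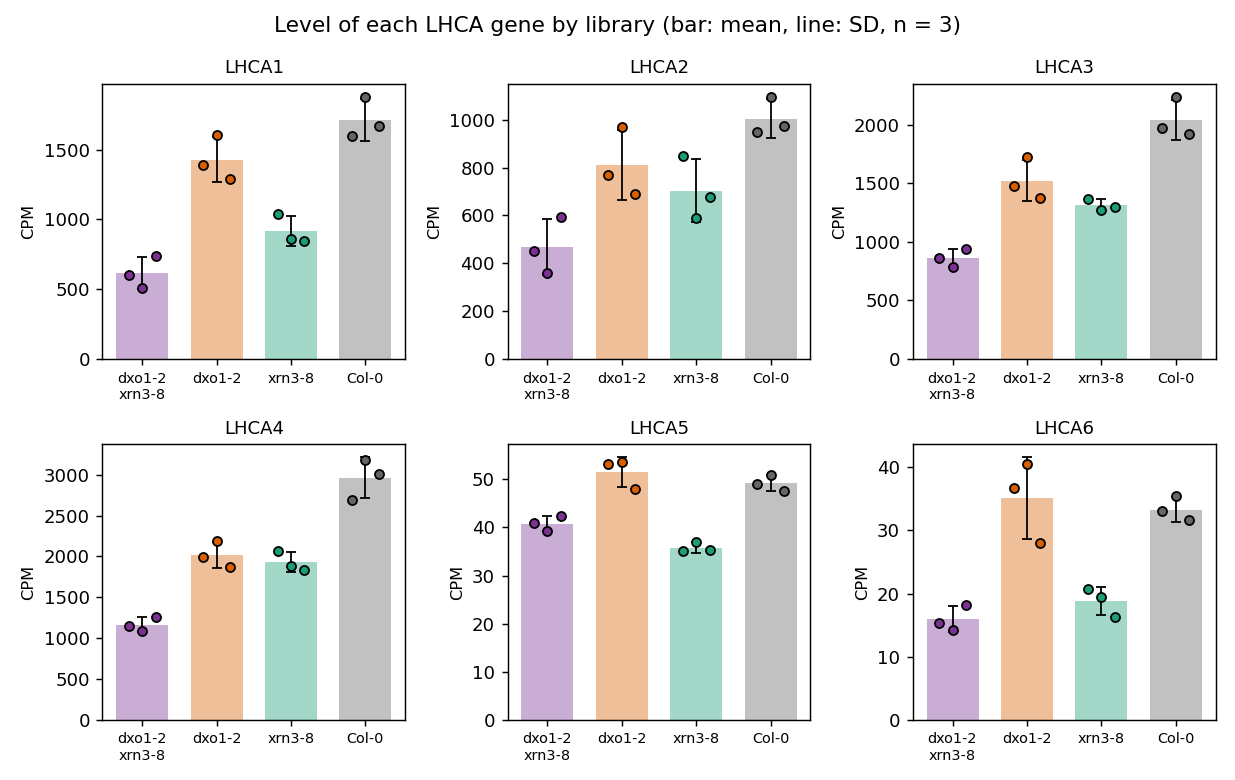
Level of each LHCA gene in CPM (TMM-scaled) by genotype, with 1 panel per gene. Points are libraries, bars are means and lines are SD over 3 libraries. For LHCA1, LHCA3 and LHCA4 the 3 double-mutant libraries lie below the libraries of the other 3 genotypes, whereas for LHCA5 they lie between xrn3-8 and Col-0.

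LHCA1 is the dimer partner of LHCA4. It had 605, 506 and 735 CPM in the double mutant, 1392, 1606 and 1286 CPM in dxo1-2, 1038, 859 and 848 CPM in xrn3-8, and 1594, 1878 and 1665 CPM in Col-0. The double mutant was lowest in 3 of 3 libraries, xrn3-8 came next without overlap, and dxo1-2 overlapped with Col-0. Set against Col-0, the LHCA1 values on the log2 scale were -1.48 in the double mutant (SE 0.139, edgeR adjusted p 1.3e-06), -0.26 in dxo1-2 (SE 0.137, adjusted p 0.139) and -0.90 in xrn3-8 (SE 0.138, adjusted p 0.00018). The double mutant held 35.9% of the Col-0 mean, the lowest such value among the 6 genes.

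LHCA4 carries the chlorophylls that absorb at the longest wavelengths in this antenna. Its level was 1144, 1082 and 1264 CPM in the double mutant, 1988, 2189 and 1871 CPM in dxo1-2, 2067, 1886 and 1830 CPM in xrn3-8, and 2694, 3185 and 3004 CPM in Col-0. Both single mutants lay between the double mutant and Col-0 without touching either, and they overlapped with each other. LHCA4 fell by 1.35 on the log2 scale in the double mutant (SE 0.106, edgeR adjusted p 2.3e-07), by 0.55 in dxo1-2 (SE 0.104, adjusted p 0.000682) and by 0.62 in xrn3-8 (SE 0.104, adjusted p 0.000401). LHCA4 overlaps 53 bases of AT3G47460 on the opposite strand, whose own mean of 10 to 13.1 CPM per genotype is far below it. How strand was used in the counting is not given in the sources used here.

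LHCA3 pairs with LHCA2 in the other dimer. It stood at 860, 784 and 943 CPM in the double mutant, 1475, 1721 and 1375 CPM in dxo1-2, 1369, 1275 and 1296 CPM in xrn3-8, and 1971, 2239 and 1918 CPM in Col-0. The double mutant was lowest and Col-0 highest, each apart from the other genotypes. Between them, the ranges of xrn3-8 and dxo1-2 nearly touched, at 1369 and 1375 CPM. These single mutants were not tested against each other, so no order between them is drawn. The log2 fold change against Col-0 was -1.24 in the double mutant (SE 0.109, edgeR adjusted p 6.7e-07), -0.42 in dxo1-2 (SE 0.108, adjusted p 0.00579) and -0.64 in xrn3-8 (SE 0.108, adjusted p 0.000416).

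LHCA2, the partner of LHCA3, had the largest standard errors of the 6 genes in these comparisons. The counts gave 452, 358 and 593 CPM in the double mutant, 771, 971 and 689 CPM in dxo1-2, 848, 588 and 677 CPM in xrn3-8, and 947, 1096 and 973 CPM in Col-0. The double mutant and xrn3-8 lay below Col-0 in 3 of 3 libraries each, but the ranges of the double mutant and xrn3-8 touched, and dxo1-2 overlapped with both xrn3-8 and Col-0. LHCA2 fell by 1.1 on the log2 scale in the double mutant (SE 0.179, edgeR adjusted p 0.000176) and by 0.51 in xrn3-8 (SE 0.177, adjusted p 0.0369), and its log2 fold change in dxo1-2 was -0.31 (SE 0.177, adjusted p 0.174).

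The xrn3-8 call for LHCA2 was lost in 8 of 19 alternative analyses, with an edgeR adjusted p of up to 0.128. Among single libraries, it was lost without Col-0 replicate 1 (adjusted p 0.0634), 2 (0.128) or 3 (0.0743), xrn3-8 replicate 2 (0.127) or 3 (0.099), or dxo1-2 replicate 1 (0.0533). LHCA2 also shares an exact run of 98 bases with another gene, AT5G28450, and 21.7% of its 1408 exon bases lie in such shared runs of at least 50 bases. AT5G28450 had 1 to 9 counts per library. The files tally non-unique reads apart from the genes, so the level of LHCA2 may be understated in each genotype. The other 5 LHCA genes share no run longer than 21 bases with another gene.

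LHCA5, the first of the NDH linkers, changed least. It had 40.9, 39.2 and 42.3 CPM in the double mutant, 53.1, 53.5 and 48.0 CPM in dxo1-2, 35.0, 37.0 and 35.3 CPM in xrn3-8, and 49.1, 50.8 and 47.6 CPM in Col-0. Here the lowest genotype was xrn3-8, the double mutant lay above it and below Col-0 without overlap, and dxo1-2 overlapped with Col-0. LHCA5 log2 fold changes were -0.27 in the double mutant (SE 0.0683, edgeR adjusted p 0.00509), 0.07 in dxo1-2 (SE 0.0683, adjusted p 0.449) and -0.46 in xrn3-8 (SE 0.0686, adjusted p 0.000154). The double mutant kept 83% of the Col-0 mean, whereas the other 5 genes kept 35.9 to 47.8%. LHCA5 overlaps 192 bases of AT1G45545 on the opposite strand, which had 0 to 11 counts per library.

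LHCA6, the other NDH linker, moved with the xrn3-8 mutation. The level was 15.3, 14.3 and 18.2 CPM in the double mutant, 36.7, 40.5 and 28.0 CPM in dxo1-2, 20.7, 19.5 and 16.3 CPM in xrn3-8, and 33.0, 35.4 and 31.6 CPM in Col-0. The 2 genotypes that carry xrn3-8 overlapped with each other and lay below the 2 that do not, which also overlapped. On the log2 scale LHCA6 fell by 1.07 in the double mutant (SE 0.133, edgeR adjusted p 1.8e-05) and by 0.83 in xrn3-8 (SE 0.133, adjusted p 0.000279), and its log2 fold change in dxo1-2 was 0.07 (SE 0.131, adjusted p 0.682). The dxo1-2 value was -0.02 without dxo1-2 replicate 2 and 0.24 without its replicate 3, neither of them called.

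**Figure D2:**
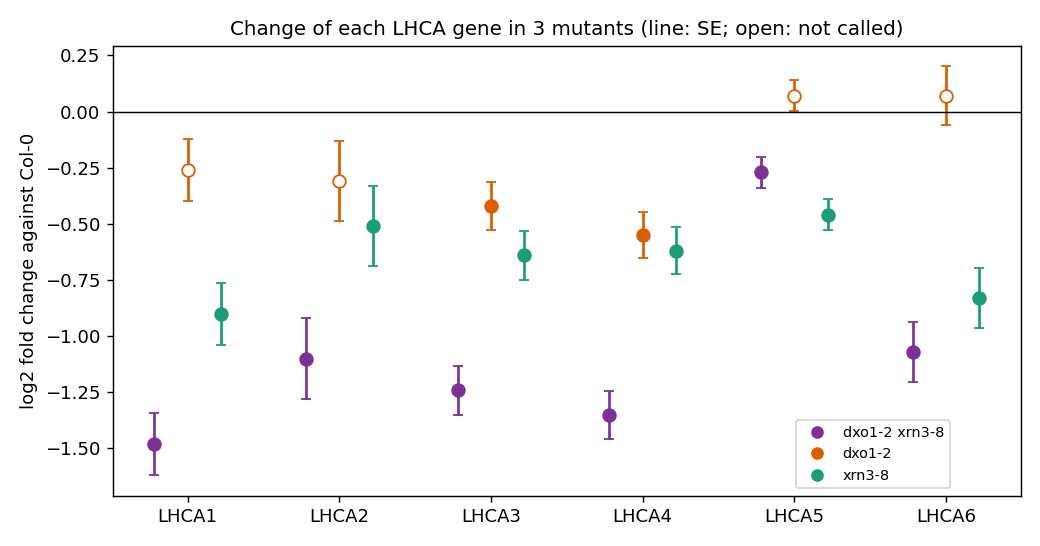
Log2 fold change of each LHCA gene against Col-0 in the double mutant, dxo1-2 and xrn3-8. Lines are standard errors, and open points did not pass the edgeR threshold of 0.05 on the adjusted p. Values in the double mutant are -1.07 to -1.48 for 5 genes and -0.27 for LHCA5, and the dxo1-2 points of LHCA1, LHCA2, LHCA5 and LHCA6 are open.

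Counted over the genes, 6 of 6 LHCA genes were lower in the double mutant than in Col-0, where 46.4% of all tested genes were called, 22% lower and 24.4% higher. In dxo1-2, 2 of 6 were lower, LHCA3 and LHCA4, where 42.1% of all tested genes were called, 20.7% lower and 21.5% higher. The 2 of 6 in dxo1-2 is close to these background shares, and with the compared genotypes alone in the fit LHCA1 and LHCA2 passed as well, for 4 of 6. In xrn3-8, 6 of 6 were lower, where 34.4% of all tested genes were called, 18.1% lower and 16.3% higher. The libraries lay wholly below those of Col-0 for 6 of 6 LHCA genes in the double mutant, beside 26.6% of all tested genes, for 2 of 6 in dxo1-2, beside 27.4%, and for 6 of 6 in xrn3-8, beside 24.2%. The median log2 fold change over the 6 genes was -1.17 in the double mutant, -0.29 in dxo1-2 and -0.63 in xrn3-8. Over all tested genes the median was 0.02 in the double mutant, 0.01 in dxo1-2 and -0.00 in xrn3-8. Since the 3 comparisons share the Col-0 libraries, they are not independent of each other.

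The double mutant was next set against each single mutant, which asks what the other mutation adds. XRN3 and DXO1 RNA also differed between the double mutant and the single mutants, as given above, and their part in the LHCA values was not tested. Compared with dxo1-2, 6 of 6 LHCA genes were lower in the double mutant, where 31.8% of all tested genes were called, 15.5% lower and 16.4% higher. The log2 fold changes were -1.22 for LHCA1 (SE 0.139, edgeR adjusted p 2.2e-05), -1.14 for LHCA6 (SE 0.133, adjusted p 2.7e-05), -0.82 for LHCA3, -0.79 for LHCA2, -0.79 for LHCA4 and -0.34 for LHCA5 (SE 0.0683, adjusted p 0.00184). Their libraries did not overlap in any of the 6 genes, and libraries lay apart in this direction for 22% of all tested genes.

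Compared with xrn3-8, 4 of 6 LHCA genes were lower in the double mutant and 1 was higher, where 43.5% of all tested genes were called, 20.5% lower and 22.9% higher. The 4 antenna genes fell by 0.73 for LHCA4 (SE 0.104, edgeR adjusted p 7.8e-05), 0.61 for LHCA3 (SE 0.108, adjusted p 0.000446), 0.59 for LHCA2 (SE 0.178, adjusted p 0.0149) and 0.57 for LHCA1 (SE 0.137, adjusted p 0.00377). LHCA2 was no longer called without double-mutant replicate 1 (adjusted p 0.0507) or 2 (0.0711) or xrn3-8 replicate 1 (0.0748). LHCA6 was not called, at -0.24 (SE 0.133, edgeR adjusted p 0.161). LHCA5 was higher by 0.19 (SE 0.0684, edgeR adjusted p 0.0363). Libraries of the double mutant lay wholly below those of xrn3-8 for 3 of 6 genes (LHCA1, LHCA3 and LHCA4), beside 24.6% of all tested genes, and wholly above for LHCA5, beside 26.2%. The LHCA5 call was lost in 15 of 19 alternatives. Over the 19 together, the adjusted p ranged from 0.0338 to 0.153 and the log2 fold change from 0.12 to 0.23. The call held under DESeq2 and without double-mutant replicate 2, dxo1-2 replicate 3 or xrn3-8 replicate 2. It fell away with any other single library left out, most of all without double-mutant replicate 3 (edgeR adjusted p 0.1).

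For none of the 6 LHCA genes did the combined effect of the mutations differ, past the threshold, from the sum of the single effects on the log2 scale. The edgeR interaction test called 0 of 6, and 0 had an unadjusted p under 0.05 in edgeR or in DESeq2, where edgeR called 20.9% of all tested genes, 8.67% negative and 12.2% positive. The interaction, which is the log2 fold change of the double mutant minus the summed changes of dxo1-2 and xrn3-8, was -0.31 for LHCA1, with a 95% normal interval of -0.69 to 0.07. It was -0.28 for LHCA2 (-0.77 to 0.21), -0.18 for LHCA3 (-0.48 to 0.11) and -0.17 for LHCA4 (-0.46 to 0.11). For the linkers it was 0.12 for LHCA5 (-0.07 to 0.31) and -0.31 for LHCA6 (-0.68 to 0.05). The intervals include 0 but are wide enough to hold sizeable departures from additivity, such as the lower bound of LHCA2. For LHCA4, the singles summed to -1.17 and the double mutant measured -1.35, and for LHCA5 they summed to -0.39 and the double mutant measured -0.27.

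Levels can be compared between genes only per length, here as CPM per kilobase of annotated exon. In Col-0 the order was LHCA4 at 2287 ± 192, LHCA1 at 1345 ± 116, LHCA3 at 1257 ± 106, LHCA2 at 714 ± 56.6, LHCA5 at 45.9 ± 1.52 and LHCA6 at 28.7 ± 1.66 CPM per kb (SD, n = 3 each). The ranges of the neighbours LHCA1 and LHCA3 overlapped in Col-0, although LHCA1 was above LHCA3 within 3 of 3 libraries. In the double mutant the order was LHCA4 at 898 ± 71.5, LHCA3 at 531 ± 48.9, LHCA1 at 483 ± 90.3, LHCA2 at 332 ± 83.9, LHCA5 at 38.1 ± 1.46 and LHCA6 at 13.7 ± 1.76 CPM per kb. LHCA3 thus stood above LHCA1 in the 2 genotypes with xrn3-8, within 3 of 3 libraries each, and below it in dxo1-2 and Col-0, within 3 of 3 libraries each. Which of them is the higher depends on the exon lengths used, 1273 bases for LHCA1 and 1625 for LHCA3, whereas the shift of their ratio between genotypes does not.

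Ratios within a library compare the genes without any scaling between libraries. LHCA5 reached 4.33, 4.38 and 4.05% of LHCA4 per kb in the double mutant, 3.23, 2.96 and 3.11% in dxo1-2, 2.05, 2.37 and 2.33% in xrn3-8, and 2.2, 1.93 and 1.91% in Col-0. The double mutant was highest and dxo1-2 second, each apart from the other genotypes, and xrn3-8 overlapped with Col-0. How often ratios of other gene pairs lie apart between genotypes was not tested. The separations given for this and the other ratios below are therefore only a description. The ratio was 2.11-fold that of Col-0 in the double mutant and 1.54-fold in dxo1-2, each with a two-sided exact permutation p of 0.1, the smallest that 3 against 3 libraries allow (adjusted p 0.192 over 25 such tests). In xrn3-8 it was 1.12-fold (exact permutation p 0.2, adjusted 0.278).

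The ratio of LHCA1 to LHCA3, chosen after their crossing had been seen, averaged 90.5 ± 8.61% per kb in the double mutant, 120 ± 0.725% in dxo1-2, 88.8 ± 7.07% in xrn3-8 and 107 ± 3.77% in Col-0 (SD, n = 3 each). The double mutant and xrn3-8 lay below Col-0 and dxo1-2 above it, without overlap (exact permutation p 0.1 each, adjusted 0.192). LHCA1 to its partner LHCA4 was 53.5 ± 5.8% in the double mutant, 71.9 ± 2.43% in dxo1-2, 48.2 ± 2.56% in xrn3-8 and 58.9 ± 2.15% in Col-0, apart from Col-0 in the single mutants (exact permutation p 0.1 each, adjusted 0.192) and overlapping with it in the double mutant (exact permutation p 0.2, adjusted 0.278). LHCA2 to its partner LHCA3 was 62 ± 10% in the double mutant, 61.1 ± 3.7% in dxo1-2, 61.7 ± 9.24% in xrn3-8 and 56.8 ± 1.57% in Col-0, with overlap in each of the 5 comparisons made. LHCA6 to LHCA2 was 4.22 ± 0.564% in the double mutant, 5.25 ± 0.459% in dxo1-2, 3.29 ± 0.62% in xrn3-8 and 4.02 ± 0.176% in Col-0, and dxo1-2 alone lay apart from Col-0 (exact permutation p 0.1, adjusted 0.192).

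**Figure D3:**
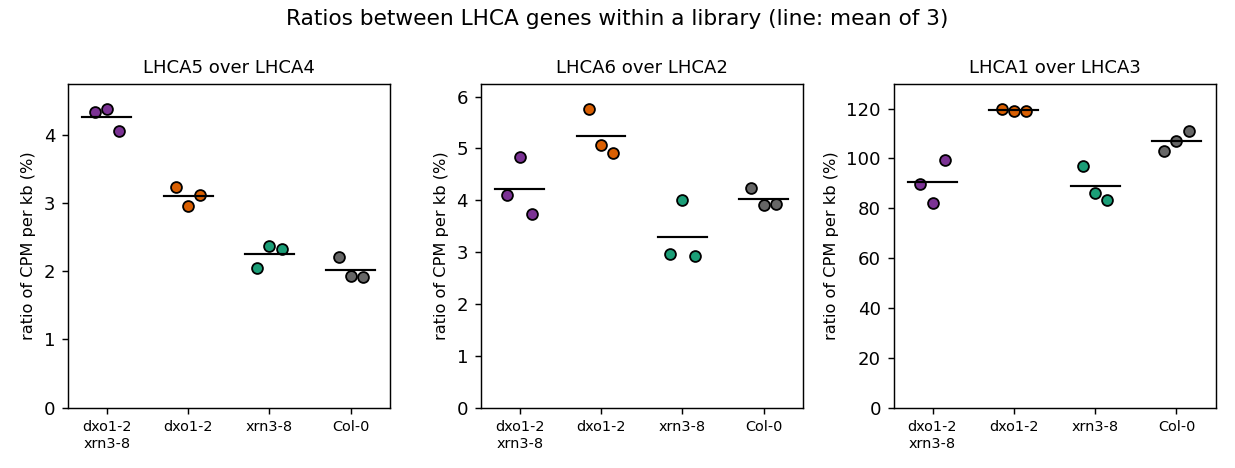
Ratio of 2 LHCA genes within each library, as a percentage of CPM per kb, by genotype; points are libraries and lines are means of 3. LHCA5 over LHCA4 averages 4.25% in the double mutant and 2.02% in Col-0, and LHCA1 over LHCA3 lies below 100% in the genotypes with xrn3-8.

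The 4 antenna genes moved closely together across the 12 libraries, as a description of libraries that share genotypes. Pearson's r of log2 CPM was highest for LHCA3 and LHCA4, at 0.987, and lowest for LHCA4 and LHCA5, at 0.479. LHCA6 came close to some antenna genes, with an r of 0.948 with LHCA1, beside 0.933 for LHCA1 and LHCA4, but 0.794 with LHCA4. After the genotype means were taken out, LHCA1 and LHCA2 still had an r of 0.968, and the lowest was 0.493, for LHCA2 and LHCA5. Among 13455 other genes with a mean of at least 5 CPM, the closest in pattern to LHCA1 were LHCB2.2 (r 0.996) and LHCB4.2 (0.993), both antenna genes of photosystem II, and PHOT2 (0.986), a blue-light receptor. Closest to LHCA2 were PSBO1 (0.989), of the oxygen-evolving complex, LHCB1.2 (0.984) and LHCB4.1 (0.984). LHCA3 and LHCA4 shared PSBP-1, also of the oxygen-evolving complex, as the closest gene, at 0.992 for LHCA3 and 0.994 for LHCA4. They were followed by THM1 (0.991), a chloroplast thioredoxin, and the photosystem I subunit PSAF (0.988) for LHCA3, and by RBCS2B (0.994), a small subunit of Rubisco, and LHCB6 (0.983) for LHCA4. Closest to the linker LHCA5 were AT2G40400 (0.986), AT5G22390 (0.984) and RBCS1B (0.978), also a small subunit of Rubisco. Closest to the linker LHCA6 were AT1G11860 (0.988) and the photosystem II antenna genes LHCB2.3 (0.984) and LHCB3 (0.982).

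The core of photosystem I, to which this antenna binds, moved alongside it. Of its 12 nuclear-encoded subunit genes, 12 were lower in the double mutant, 8 in dxo1-2 and 10 in xrn3-8, and 0 were higher in these. Beside this and each list below, 22% of all tested genes were lower and 24.4% higher in the double mutant. The shares were 20.7% lower and 21.5% higher in dxo1-2, and 18.1% and 16.3% in xrn3-8. The medians of the 12 genes were -1.21 in the double mutant, -0.41 in dxo1-2 and -0.65 in xrn3-8, close to those of the LHCA genes. PSAN, a subunit on the lumen side where plastocyanin docks, fell by 1.55 in the double mutant (SE 0.115, edgeR adjusted p 1.4e-07), 0.88 in dxo1-2 (SE 0.114, adjusted p 2.9e-05) and 0.95 in xrn3-8 (SE 0.114, adjusted p 2.4e-05). PSAH2, on the side where the antenna of photosystem II docks, fell by 1.49 in the double mutant (SE 0.118, edgeR adjusted p 2.6e-07) and by 1.1 in xrn3-8 (SE 0.117, adjusted p 8.4e-06). PSAG, which holds the LHCA1 side of the crescent to the core, fell by 0.64 in dxo1-2 (SE 0.0849, edgeR adjusted p 4e-05). Without Col-0 replicate 2, the count in dxo1-2 was 5.

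Of the 5 core genes encoded in the plastid, 0 passed the threshold in xrn3-8 by edgeR or DESeq2, and 0 had an unadjusted p under 0.05 by either. There their median log2 fold change was 0.08, whereas 3 of 5 were lower in the double mutant, with a median of -0.76, and 3 of 5 in dxo1-2, with a median of -0.38. PSAA and PSAB encode the large reaction-centre proteins, and each fell by 0.85 in the double mutant, PSAA with an SE of 0.122 (edgeR adjusted p 6.5e-05) and PSAB with an SE of 0.12 (adjusted p 5.2e-05). In dxo1-2 the iron-sulfur subunit PSAC fell by 0.64 (SE 0.173, edgeR adjusted p 0.00829) and PSAB by 0.44 (SE 0.119, adjusted p 0.00886). The counts were 5 in the double mutant without its replicate 2 and 1 in dxo1-2 without its replicate 1. Whether the 5 plastid genes differ from the LHCA genes in xrn3-8 was not tested as a group. The plastid share of all gene counts, given above, was also lowest in the double mutant, and its part in these values was not tested.

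Among 15 antenna genes of photosystem II, 13 were lower in the double mutant, 2 in dxo1-2 and 11 in xrn3-8, with 0 higher. The median log2 fold change was -1.08 in the double mutant, -0.19 in dxo1-2 and -0.71 in xrn3-8. The 2 of 15 in dxo1-2 is not above the 20.7% of all tested genes lower there. LHCB6, a minor antenna protein, fell by 1.62 in the double mutant (SE 0.135, edgeR adjusted p 4.2e-07) and by 0.87 in dxo1-2 (SE 0.132, adjusted p 0.000124). LHCB2.3, of the mobile trimer, fell by 1.60 in the double mutant (SE 0.125, edgeR adjusted p 2.2e-07) and by 1.45 in xrn3-8 (SE 0.124, adjusted p 1.3e-06). The dxo1-2 count was 4 without dxo1-2 replicate 2 or double-mutant replicate 3, and also 4 with the compared genotypes alone in the fit. LHCB genes of 1 subfamily are close copies, so reads could be split or lost between them.

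The 17 nuclear NDH genes, whose complex LHCA5 and LHCA6 tie to photosystem I, were mostly lower with xrn3-8. In the double mutant 14 were lower and 1 higher, in dxo1-2 3 were lower and 4 higher, and in xrn3-8 16 were lower and 0 higher. The medians were -0.60 in the double mutant, -0.01 in dxo1-2 and -0.57 in xrn3-8. Relative to dxo1-2, 17 of 17 were lower in the double mutant, and relative to xrn3-8, 4 were lower and 4 higher. Against dxo1-2, 15.5% of all tested genes were lower in the double mutant. The counts against xrn3-8 are close to the shares over all tested genes, 20.5% lower and 22.9% higher. Those in dxo1-2 against Col-0 are likewise close to 20.7% lower and 21.5% higher. NDHT, a subunit at the ferredoxin-binding end, rose by 0.80 in dxo1-2 (SE 0.164, edgeR adjusted p 0.00136) and fell by 1.56 in xrn3-8 (SE 0.174, adjusted p 1.3e-05). PNSB1, of the subcomplex next to the membrane arm, fell by 1.43 in the double mutant (SE 0.0796, edgeR adjusted p 1.1e-08) and by 0.88 in dxo1-2 (SE 0.0787, adjusted p 1.1e-06). The single higher call in the double mutant, NDHS at 0.26 (SE 0.0741, edgeR adjusted p 0.00943), was lost without double-mutant replicate 3.

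**Figure D4:**
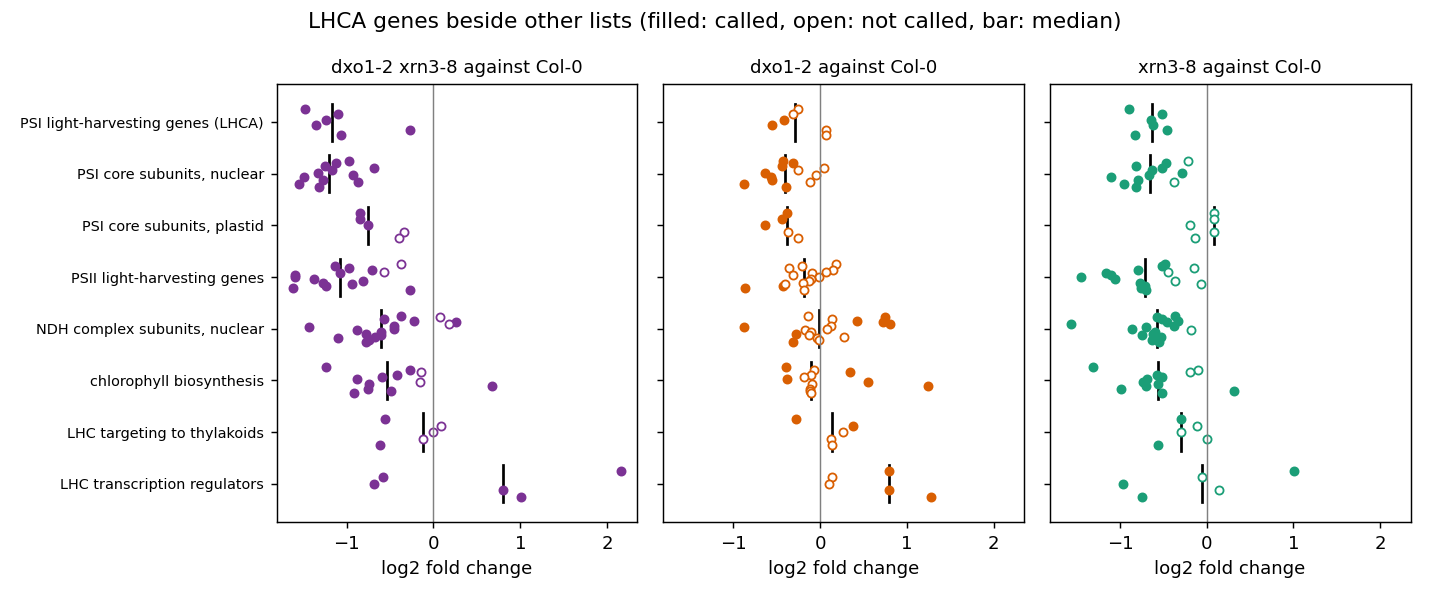
Log2 fold change against Col-0 of each gene in 8 lists, in the double mutant, dxo1-2 and xrn3-8. Filled points passed an edgeR adjusted p of 0.05, open points did not, and bars are medians. The LHCA median is -1.17 in the double mutant beside -1.21 for the nuclear core genes, and the plastid core genes have a median of 0.08 in xrn3-8.

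Genes that serve the making of the antenna were less uniform. Of 5 genes that bring light-harvesting proteins to the thylakoid, 2 were lower in the double mutant and 2 in xrn3-8. LTD, which guides these proteins at the chloroplast envelope, fell by 0.62 in the double mutant (SE 0.0896, edgeR adjusted p 6.5e-05) and by 0.56 in xrn3-8 (SE 0.0896, adjusted p 0.000278). ALB3, the thylakoid insertase, fell by 0.56 in the double mutant (SE 0.0714, edgeR adjusted p 2.1e-05) and by 0.30 in xrn3-8 (SE 0.0713, adjusted p 0.00484). In dxo1-2, ALB3 fell by 0.28 (SE 0.0713, edgeR adjusted p 0.00581), a call lost without Col-0 replicate 2, and CPFTSY, the receptor of the targeting particle, rose by 0.38 (SE 0.0732, adjusted p 0.000864). Of 5 assembly factors of photosystem I, 4 were lower in the double mutant, led by PPD1 at -0.74 (SE 0.134, edgeR adjusted p 0.000431) and PSA2 at -0.49 (SE 0.0714, adjusted p 6.9e-05). Without the filter on low counts, 3 were lower there. In xrn3-8, 1 of the 5 was lower and 0 higher, and in dxo1-2 1 was lower and 1 higher. The lower counts in these single mutants are close to the shares over all tested genes given above.

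Chlorophyll biosynthesis had 9 of 12 genes lower and 1 higher in the double mutant and the same counts in xrn3-8, beside 2 lower and 3 higher in dxo1-2. The dxo1-2 counts are close to the shares over all tested genes, 20.7% lower and 21.5% higher. CAO, which makes the chlorophyll b that antenna proteins bind, fell by 1.24 in the double mutant (SE 0.0901, edgeR adjusted p 1.2e-07), 0.39 in dxo1-2 (SE 0.0889, adjusted p 0.00286) and 1.31 in xrn3-8 (SE 0.0903, adjusted p 2.2e-07). GUN4, which activates magnesium chelatase, rose by 0.67 in the double mutant (SE 0.0995, edgeR adjusted p 8.7e-05) and by 1.24 in dxo1-2 (SE 0.1, adjusted p 4.9e-07). The higher call in xrn3-8, PORB at 0.32 (SE 0.104, edgeR adjusted p 0.0292), was lost without xrn3-8 replicate 2 or 3 or Col-0 replicate 1 or 3, and the dxo1-2 count of lower genes was 1 without Col-0 replicate 2.

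Transcription factors known to act on light-harvesting genes did not move as a block in the double mutant or xrn3-8. Of 5 such genes, 2 were lower and 3 higher in the double mutant, and 2 lower and 1 higher in xrn3-8. In dxo1-2, 3 were higher and 0 lower, with log2 fold changes of 0.10 to 1.28 over the 5. GLK1 and GLK2, which activate nuclear photosynthesis genes, had log2 fold changes of -0.58 (SE 0.166, edgeR adjusted p 0.0107) and -0.69 (SE 0.201, adjusted p 0.0117) in the double mutant, and GLK2 had -0.97 (SE 0.203, adjusted p 0.00201) in xrn3-8. GLK1 averaged 26.5 ± 5.51 CPM in the double mutant, 43.7 ± 3.58 CPM in dxo1-2, 38.2 ± 9.49 CPM in xrn3-8 and 39.5 ± 4.17 CPM in Col-0 (SD, n = 3 each). These 2 lower calls in the double mutant became 0 without its replicate 2 and 1 without its replicate 1 or Col-0 replicate 3, and the 2 in xrn3-8, GLK2 and HY5, became 1 without Col-0 replicate 1. The other way, CGA1, a GATA factor that promotes chloroplast development, rose by 2.16 in the double mutant (SE 0.146, edgeR adjusted p 6.6e-08), 0.79 in dxo1-2 (SE 0.147, adjusted p 0.000623) and 1.01 in xrn3-8 (SE 0.146, adjusted p 0.000116). HY5, a light-signalling factor, rose by 1.01 in the double mutant (SE 0.183, edgeR adjusted p 0.00043) and by 1.28 in dxo1-2 (SE 0.183, adjusted p 7.5e-05), and fell by 0.74 in xrn3-8 (SE 0.194, adjusted p 0.0084).

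Several other measured features also differed between the genotypes, not all in the pattern of the LHCA genes, and their part in the LHCA values was not tested. Of 10 clock genes, 5 were lower and 5 higher in the double mutant, 2 lower and 4 higher in dxo1-2, and 4 lower and 5 higher in xrn3-8. The 2 lower in dxo1-2 are close to the 20.7% of all tested genes lower there. CCA1, a morning gene of the clock whose product binds light-harvesting promoters, fell by 1.06 in the double mutant (SE 0.121, edgeR adjusted p 7.5e-06) and by 2.37 in xrn3-8 (SE 0.127, adjusted p 2.9e-08). The evening gene ELF4 rose by 5.80 in the double mutant (SE 0.478, edgeR adjusted p 3.8e-07) and by 5.74 in xrn3-8 (SE 0.48, adjusted p 1.1e-06). ELF4 had 119 to 156 counts in the double mutant, 91 to 129 counts in xrn3-8 and only 0 to 4 counts in Col-0, so the size of these fitted changes is poorly determined. The count of lower clock genes in the double mutant was 3 without Col-0 replicate 1, and in dxo1-2 it was 1 without dxo1-2 replicate 1 or 3 or Col-0 replicate 1 or 2.

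Genes of senescence and chlorophyll breakdown, 7 in the list, summed to 421 to 444 CPM in the double mutant, 174 to 197 CPM in dxo1-2, 293 to 332 CPM in xrn3-8 and 208 to 240 CPM in Col-0. In the double mutant 4 of 7 were higher than in Col-0 and 0 lower, among them NYC1, a chlorophyll b reductase, by 1.31 (SE 0.0747, edgeR adjusted p 1.3e-08). In dxo1-2 the direction was the other, with 4 of 7 lower and 0 higher, a count that was 2 without dxo1-2 replicate 2. In xrn3-8, 2 were higher and 1 lower. Leaf markers (CA1, RBCS1A, RBCS1B, RBCS2B, RBCS3B and RCA) summed to 4466 to 5616 CPM in the double mutant, 7551 to 9695 CPM in dxo1-2, 6164 to 7195 CPM in xrn3-8 and 9844 to 10682 CPM in Col-0. Of these 6 genes, 6 were lower in the double mutant, 2 in dxo1-2 and 6 in xrn3-8. The dxo1-2 count was 1 without dxo1-2 replicate 1 or 3 or Col-0 replicate 2 or 3, and 4 with the compared genotypes alone in the fit. RBCS2B and RBCS1B are among the genes closest in pattern to LHCA4 and LHCA5. The leaf markers therefore give no measure of leaf tissue separate from photosynthesis genes. Root markers (COBL9, EXPA7, NRT2.1, PYK10 and RHD6) summed to 74.8 to 97 CPM in the double mutant, 168 to 191 CPM in dxo1-2, 67.8 to 124 CPM in xrn3-8 and 95.8 to 153 CPM in Col-0, nearly all from PYK10, with RHD6 at 0 in the 12 libraries. Flower markers (AG, AP1, AP3, PI and SEP3) summed to at most 3.98 CPM in a library.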

How the data were processed

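Ribosomal RNA had been removed from total RNA with a plant leaf kit, and the rest made into stranded libraries, per the labels' protocols. The deposited files hold whole-number read counts per gene, not normalised, made by the authors against build TAIR10. HISAT2 2.0.4, HTSeq 0.6.0 and SAMtools 1.1 are named in the submitters' processing notes, with no role or order, and the use of strand is not given in the sources used here. Files end with summary lines that name no gene, which stayed out of library sizes and tests: 6.99 to 11.1% of the reads had no feature, 0.9 to 1.21% were ambiguous, 1.51 to 2.08% were not aligned and 9.8 to 11.2% were not unique. Gene identifiers were matched to RefSeq TAIR10.1 (36899 of 36899 nuclear identifiers) for positions and exon lengths.

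The quasi-likelihood F-test of edgeR 4.0.16 (R 4.3.3) was applied to the counts, with TMM scaling and the package's filter set to a count of 10 per library and 15 in total. The 12 libraries entered 1 fit with 1 term per genotype and no other covariate. P-values were adjusted by Benjamini-Hochberg over the 21974 genes in each of 6 comparisons, and a gene was called at an adjusted p under 0.05. The standard error was derived from the F statistic. Correlations used log2 CPM with a prior count of 2. Ratios were tested by exact permutation with SciPy 1.17.1. P-values measure the spread between libraries, with a biological coefficient of variation of 12.7%, and the reads carried no molecular identifiers. Alternatives were RLE and upper quartile scaling, nuclear genes only, DESeq2 1.42.0, no filter, the compared genotypes only, a replicate block and leaving out each library.

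The members, gene lists and tests were chosen with earlier results of these data known, and no p is adjusted over a list. In each list described and comparison, naming was limited to called genes, at most the 2 that rose most and the 2 that fell most, beside the 6 LHCA genes, the mutated genes, the 3 genes closest in pattern to each member and the marker genes. The genes of these lists whose interaction passed the threshold are named as well.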

Additional observations from a re-analysis of the deposited data

Results flagged for a closer look

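By the edgeR interaction test, the effect of 1 mutation differed with and without the other in 19 genes of the surrounding lists. It did so in none of the 6 LHCA genes. Over all tested genes 20.9% passed, so the 19 calls as a whole are not read as a trait of these lists. Calls were made for 1 of 12 nuclear and 2 of 5 plastid core genes of photosystem I, and 1 of 15 photosystem II antenna genes. NDH genes had 1 of 17 positive and 1 negative, and chlorophyll biosynthesis 1 of 12 each way. Clock genes had 3 of 10 positive and 2 negative. No assembly, targeting or regulator gene and no leaf, root or flower marker was called. Values are log2, the double mutant minus the summed single mutants, and negative ones mean that the double mutant was lower than the sum. Near photosystem I, PSAG, which anchors the LHCA1 side of the antenna, had -0.41 (edgeR adjusted p 0.0259), and the plastid genes PSAA and PSAB of the reaction centre had -0.55 (0.0344) and -0.50 (0.0481). PSAG averaged 138 ± 2.63 CPM in the double mutant, 222 ± 20 CPM in dxo1-2, 284 ± 4.8 CPM in xrn3-8 and 345 ± 31.4 CPM in Col-0 (SD, n = 3 each). In the NDH complex, PNSB3 had -0.53 (edgeR adjusted p 0.0192) and NDHT 0.95 (0.0111). LHCB7, a rare antenna relative, had 0.62 (edgeR adjusted p 0.00888). In chlorophyll biosynthesis, PORB had -0.69 (edgeR adjusted p 0.00459) and CAO 0.46 (0.019).

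Among clock genes the values were 1.48 for CCA1 (edgeR adjusted p 6.4e-05), 1.93 for LHY (0.000123), -0.62 for GI (0.00595), -1.15 for LUX (0.000645) and 1.41 for RVE8 (0.0055). Among genes of senescence and chlorophyll breakdown, 6 of 7 had a positive interaction past the threshold: SAG13 with 2.12 (edgeR adjusted p 0.00381), SGR1 with 1.35 (2.9e-05), ORE1 with 0.99 (0.000223), PAO with 0.65 (0.00607), NYC1 with 0.44 (0.00861) and PPH with 0.44 (0.0454).

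Some of these calls depended on single libraries or on the scaling. The 2 calls among plastid core genes became 1 without dxo1-2 replicate 3 and 0 without double-mutant replicate 1 or 2, dxo1-2 replicate 1 or 2, xrn3-8 replicate 1 or 2, or Col-0 replicate 1, 2 or 3. The PSAG call was lost without double-mutant replicate 2, dxo1-2 replicate 2 or Col-0 replicate 1, and the CAO call without dxo1-2 replicate 1 or 3 or Col-0 replicate 1. Under upper quartile scaling the CAO call was lost (edgeR adjusted p 0.0569), and the negative calls became 4 rather than 1 among nuclear photosystem I core genes, 4 rather than 1 among NDH genes and 3 rather than 1 in chlorophyll biosynthesis. DESeq2 made 3 negative calls among the nuclear core genes. The PPH call was lost under RLE scaling (edgeR adjusted p 0.0528), upper quartile scaling (0.112) and with nuclear genes only (0.0565), which leaves 5 of 7. The PSAB call was lost without the filter on low counts (edgeR adjusted p 0.0524) and with a replicate block (0.0593).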

How the results depend on the processing

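Of 678 values of single LHCA genes under the alternatives, 649 kept their direction and their side of the threshold, 26 lost their call, 2 gained one and 1 changed sign. With the compared genotypes alone in the fit, 4 LHCA genes were called in dxo1-2 against Col-0 rather than 2, with LHCA1 at an edgeR adjusted p of 0.0419 and LHCA2 at 0.0472. With 1 library left out, 2 to 2 genes were called in dxo1-2, 5 to 6 in xrn3-8, 6 to 6 in the double mutant whether set against Col-0 or dxo1-2, and 3 to 5 in the double mutant against xrn3-8, where the 3 came without double-mutant replicate 1 or xrn3-8 replicate 1. The log2 fold change of LHCA6 in dxo1-2, 0.07, ranged from -0.02 without dxo1-2 replicate 2 (edgeR adjusted p 0.922) to 0.24 without dxo1-2 replicate 3. No clear pairing by replicate number was seen, as 2 of 15 pairs of same-numbered libraries had correlated deviations over 0.1. With 3 libraries per genotype, such a check can miss a weak pairing. With the number as a replicate block, 5 LHCA genes were called in xrn3-8, where LHCA2 was lost (log2 fold change -0.52, edgeR adjusted p 0.0535), 4 in the double mutant against xrn3-8, where LHCA5 was lost (0.19, adjusted p 0.0521), and 6 of the 6 in the double mutant when set against Col-0. The same block called 7213 genes in xrn3-8 over all tested genes, against 7566 without it, and the interaction test called 0 LHCA genes under each of 18 alternatives. Upper quartile scaling moved the median interaction over all genes to -0.10, beside 0.01 with TMM, and the higher share of interaction calls to 40.9% beside 58.4%, and of xrn3-8 calls to 59.4% beside 47.4%. The lowest count of an LHCA gene was 1159. How much depth and the spread between libraries each added to the errors was not tested.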
